A study of Mus musculus with 8 samples.

Results

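Messenger RNA of 10 markers of GABAergic interneurons was examined in mice lacking 1 or both copies of 1b, a conserved non-coding interval of *Scn1a* that contains an alternative promoter. The members were chosen by name (*Gad1*, *Gad2*, *Slc32a1*, *Lhx6*, *Sst*, *Npy*, *Vip*, *Pvalb*, *Calb2* and *Reln*) and made up 10 of the 24015 entries of the count table. All 8 animals were C57BL/6N mice at postnatal day 7 (P7), and no treatment was given in the labels. The 2 WT animals were male and had 0 deleted alleles. The 4 heterozygotes, 1b+/-, had 1 deleted allele and were 2 males and 2 females, and the 2 homozygotes, 1b-/-, had 2 deleted alleles and were female. The deletion was made with Cas9 in oocytes and is present in every cell of the animal, and the mice descend from a line expanded for 1 deletion. Each library came from 1 animal. Hippocampus is the tissue in the labels, but forebrain is the P7 tissue in the study's methods. Between WT and 1b-/-, genotype and sex cannot be told apart.

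GABAergic interneurons are the inhibitory neurons of local circuits in the forebrain. They make GABA from glutamate with glutamate decarboxylases, load it into synaptic vesicles with a dedicated transporter, and are divided into classes by the neuropeptides and calcium-binding proteins they contain. *Scn1a* encodes NaV1.1, a sodium channel on which the firing of many of these cells depends, and the parvalbumin class matures late in postnatal life.

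Stretches of 120 bases directly upstream of the start site are given for 4 members, in the order 5′ to 3′ of the gene's own strand. *Sst* and *Vip* are shown because both encode neuropeptides and their counts differed widely, and *Gad1* and *Slc32a1* because their counts kept a more even ratio across libraries than the other 2 ratios computed. Capitals mark the cAMP response element TGACGTCA, its core TGACG on either strand, and the TATA box letters TATAAA. The sequences are from RefSeq on GRCm38.p6: *Sst* at chr16:23890845-23890964, minus strand, *Vip* at chr10:5639098-5639217, plus strand, *Gad1* at chr2:70562009-70562128, plus strand, and *Slc32a1* at chr2:158610638-158610757, plus strand.
Sst: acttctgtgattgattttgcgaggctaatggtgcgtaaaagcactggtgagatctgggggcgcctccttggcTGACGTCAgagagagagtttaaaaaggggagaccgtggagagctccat
Vip: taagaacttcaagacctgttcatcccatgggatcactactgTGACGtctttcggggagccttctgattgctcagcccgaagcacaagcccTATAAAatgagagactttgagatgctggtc
Gad1: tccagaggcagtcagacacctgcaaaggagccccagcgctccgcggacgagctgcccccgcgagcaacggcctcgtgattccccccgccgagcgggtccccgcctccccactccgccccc
Slc32a1: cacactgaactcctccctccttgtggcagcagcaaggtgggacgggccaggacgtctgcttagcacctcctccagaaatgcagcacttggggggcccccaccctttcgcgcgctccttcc
The search covered 250 bases upstream of each start on both strands, in 12 windows of 9 members. *Sst* held the whole element at positions -48 to -41, counted back from the start site, and the core found there is part of it. TGACGTCA occurred in 1.55% of all 32851 windows of that length. *Vip* held the core at -79 to -75 and TATAAA at -30 to -25, and also TATAAA at -157 to -152 and at -147 to -142, upstream of the stretch printed. *Gad1* held TATAAA on the minus strand at -141 to -136, likewise outside the printed stretch, and *Gad2*, whose sequence is not printed, held the core on the minus strand at -33 to -29. The core occurred in 17.8% of all windows and TATAAA in 12.4%. A match is a description of the sequence and was not tested for binding.

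The libraries held 2947770 to 20878772 counts. At 0 counts, the highest level compatible with the depth (3 counts) ranged from 0.145 CPM for the deepest to 1.0 CPM for the shallowest of them, counting error only, where CPM is the count relative to a TMM-scaled library size. *Scn1a*, the targeted gene, was 45.1 and 40.5 CPM in WT, 26.7, 22.2, 25.4 and 15.7 CPM in 1b+/-, and 3.18 and 2.003 CPM in 1b-/-. It fell in 1b-/- against WT (log2 fold change -3.97, SE 0.32, edgeR adjusted p = 5.96e-04). In 1b+/- against WT its log2 fold change was -0.90 (SE 0.21, edgeR adjusted p = 0.381), so the targeted gene itself was not called there. Genes of hippocampal fields were measured in every library (summed level 358 to 510 CPM), as were genes of striatal projection neurons (410 to 662 CPM) and of thalamus (259 to 580 CPM). Libraries differed in such lists: 1b+/- replicate 1 held 107 CPM of midbrain and hindbrain genes against 13.5 to 32.3 CPM in the others, and 1b+/- replicate 2 held 541 CPM of olfactory bulb genes against 202 to 371 CPM. The WT libraries differed too: thalamus genes summed to 580 CPM in replicate 1 and 378 CPM in replicate 2. Of those 12 genes, 6 were at their highest in WT replicate 1. The most abundant of them, *Zic1*, held 237 and 227 CPM of those 2 sums, and 335 of 526 CPM in 1b+/- replicate 2. A thalamus sum can therefore rest largely on 1 gene. In bulk tissue, fewer cells of a type and less RNA per cell cannot be told apart.

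Levels of the members were first compared with one another per length, as RPKM (the library-scaled count divided by the summed exon length). *Npy*, which encodes neuropeptide Y, was highest at 256 ± 30.4 RPKM (SD over 8 libraries of 3 genotypes), followed by *Sst*, which encodes somatostatin, at 159 ± 60.3 RPKM. *Npy* exceeded *Sst* in 8 of 8 libraries although their ranges overlapped, and the lowest *Sst* value, 41.6 RPKM, was above the highest *Reln* value, 37.9 RPKM. A middle group of *Reln* (26.8 ± 5.81 RPKM), *Lhx6* (26.2 ± 7.07), *Gad2* (21.4 ± 2.67) and *Calb2* (20.4 ± 5.94) overlapped in range, and neighbours in that order changed places between libraries.

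**Figure D1:**
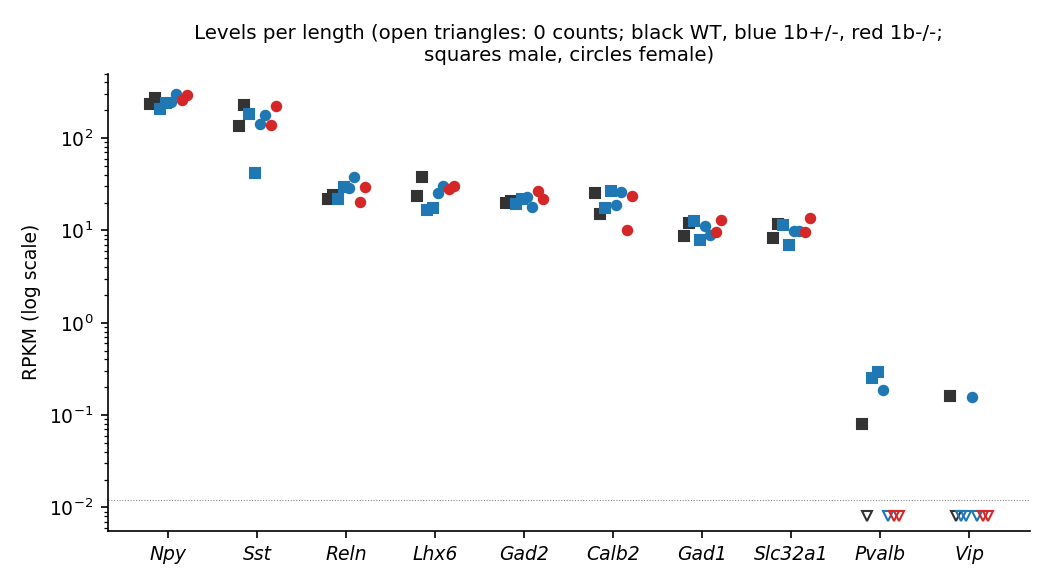
Level per length (RPKM, log axis) of the 10 members in each of the 8 libraries, in descending order of the mean, with open triangles for libraries with 0 counts. *Npy* and *Sst* lie at the top, 6 members lie between 6.91 and 38.3 RPKM, and *Pvalb* and *Vip* do not exceed 0.291 RPKM.

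*Gad1* (10.5 ± 1.97 RPKM) and *Slc32a1* (10.2 ± 2.12 RPKM) came next. *Calb2* exceeded *Gad1* in 8 of 8 libraries although their ranges overlapped, and *Gad1* was above *Slc32a1* in 5 of 8 libraries. *Gad2* RNA exceeded *Gad1* RNA per length in every library, since the lowest *Gad2* level (18.1 RPKM) was above the highest *Gad1* level (13.04 RPKM).

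*Pvalb*, which encodes the calcium buffer parvalbumin of fast-spiking interneurons, had 1 and 0 counts in WT, 4, 3, 4 and 0 counts in 1b+/-, and 0 and 0 counts in 1b-/-. That is 12 of 79445073 counts over all libraries, and no library exceeded 0.303 CPM. *Vip*, the gene of vasoactive intestinal peptide, had 3 and 0 counts in WT, 0, 0, 5 and 0 counts in 1b+/-, and 0 and 0 counts in 1b-/-. Its total was 8 counts, and 6 of 8 libraries had none. Both genes lay below 1 CPM in every library and were not tested, so a difference between genotypes was not detectable for either at this depth. On mm9, *Vip* lies in a stretch of 17 genes on chromosome 10 whose strands are given the other way round in the RefSeq annotation of GRCm38. The other 16 genes of that stretch had 9 to 11496 counts (median 961.5), so *Vip* was the gene with the fewest. Whether the annotation and strand used in counting lowered the count of *Vip* was not tested, and its level is given with that limit. The remaining 8 members passed the filter and were tested among 15588 genes.

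No member passed the threshold of an adjusted p of 0.05 in any comparison of genotypes. Against WT, 0 of 8 tested members were called in 1b+/- (percentage of all genes called 0.0834%) and 0 of 8 in 1b-/- (0.00642%), and 0 of 8 were called in 1b-/- against 1b+/- (0.00642%). At an unadjusted edgeR p under 0.05 the counts of members were also 0, 0 and 0, where 4.34%, 1.64% and 1.23% of all genes stood. The DESeq2 Wald test called 0 members in each comparison. The median log2 fold change of the 8 members was -0.02 in 1b+/- against WT (all genes 0.01), 0.11 in 1b-/- against WT (all genes -0.01) and 0.21 in 1b-/- against 1b+/- (all genes 0.00). Both comparisons against WT use the same 2 WT libraries, so their values are not independent.

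**Figure D2:**
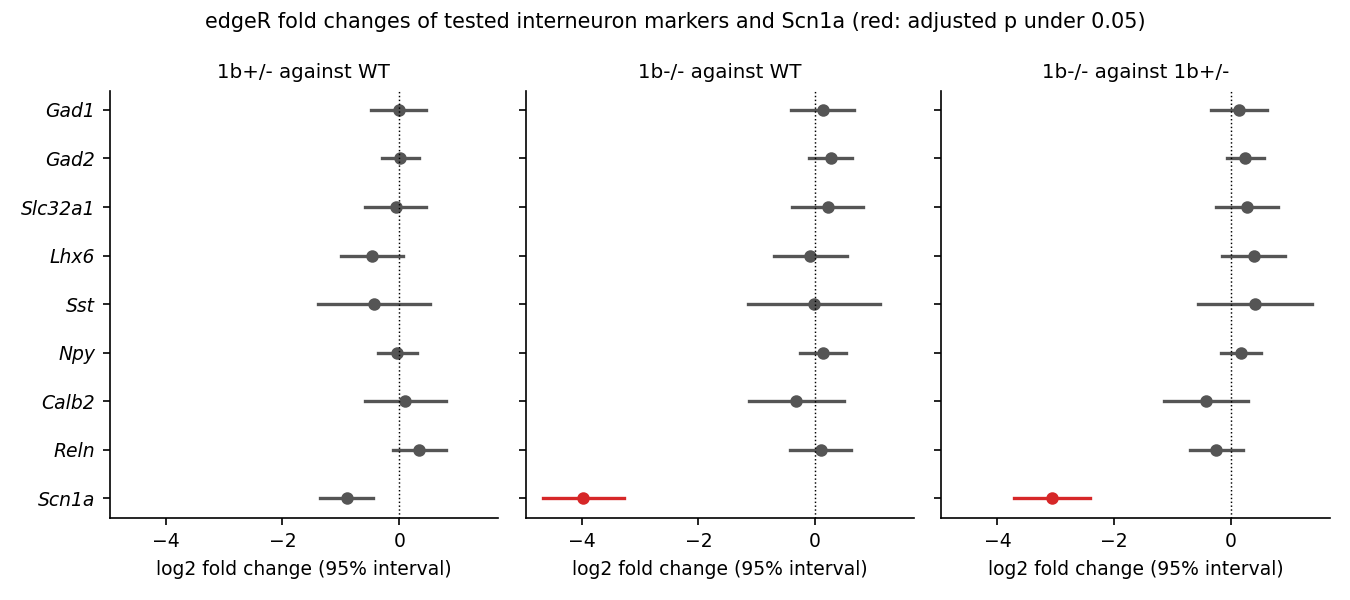
Log2 fold changes of the 8 tested members and *Scn1a* in the 3 comparisons of genotypes, with 95% intervals from the edgeR fit and red for adjusted p under 0.05. The interval of every member spans 0 in every panel, whereas that of *Scn1a* lies below 0 in each. In 1b+/- against WT *Scn1a* did not pass the threshold (edgeR adjusted p = 0.381).

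*Gad1* and *Gad2* encode the glutamate decarboxylases GAD67 and GAD65, which synthesize GABA. *Gad1* (mm9 chr2:70391129-70440071, plus strand) was 66.3 and 91.2 CPM in WT, 96.3, 59.8, 85.3 and 68.8 CPM in 1b+/-, and 72.6 and 99.6 CPM in 1b-/-. The 3 genotypes overlapped, with the extremes in 1b+/- replicate 2 and 1b-/- replicate 2. The log2 fold change was -0.01 (95% interval -0.48 to 0.46) in 1b+/- and 0.13 (-0.42 to 0.67) in 1b-/- against WT. *Gad1* is on the same chromosome as *Scn1a*, 4.11 Mb away. *Gad2* (mm9 chr2:22477725-22549394, plus strand) was 117 and 122 CPM in WT, 112, 130, 134 and 106 CPM in 1b+/-, and 157 and 129 CPM in 1b-/-. Both 1b-/- libraries were above both WT libraries, and the groups overlapped for the other 7 tested members. Of all genes, 23.6% did not overlap in that comparison and 11.6% did not overlap in the higher direction. The highest *Gad2* level was in 1b-/- replicate 1, where genes of striatal projection neurons also had their highest sum (662 CPM). That list summed to 539 CPM in 1b-/- replicate 2, against 580 and 545 CPM in WT. The part of this tissue content in the *Gad2* values was not tested. The log2 fold change of *Gad2* was 0.26 (SE 0.17, 95% interval -0.10 to 0.63) in 1b-/- against WT, where the edgeR adjusted p was 1, and 0.02 (-0.30 to 0.33) in 1b+/- against WT.

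*Slc32a1* encodes VGAT, the transporter that fills vesicles with GABA. Its level (mm9 chr2:158436494-158441484, plus strand) was 23.0 and 33.1 CPM in WT, 32.2, 19.4, 27.6 and 27.7 CPM in 1b+/-, and 26.9 and 38.3 CPM in 1b-/-. The genotypes overlapped, and the order of the libraries resembled that of *Gad1*, with 1b+/- replicate 2 lowest and 1b-/- replicate 2 highest for both genes. Its log2 fold change was -0.06 (95% interval -0.58 to 0.46) in 1b+/- and 0.21 (-0.39 to 0.82) in 1b-/- against WT. An exon of a transcript on the opposite strand overlaps *Slc32a1* in the annotation of mm9, and how strand was used in counting was not stated.

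*Lhx6* encodes a LIM homeodomain factor of interneurons born in the medial ganglionic eminence, the source of the somatostatin and parvalbumin classes. Its level (mm9 chr2:35937470-35960928, minus strand) was 112 and 181 CPM in WT, 79.4, 83.7, 120 and 142 CPM in 1b+/-, and 134 and 143 CPM in 1b-/-. The lowest values were those of the 2 male 1b+/- libraries, and the genotypes overlapped. *Lhx6* had the lowest unadjusted edgeR p of the members in 1b+/- against WT (log2 fold change -0.47, SE 0.24, 95% interval -1.002 to 0.06, edgeR adjusted p = 0.9999). This value was -0.083 without WT replicate 2 and -0.78 without WT replicate 1. With sex as a covariate the log2 fold change was -0.84 (SE 0.22, edgeR adjusted p = 0.447) in 1b+/- against WT. In 1b-/- against WT it was -0.76 (SE 0.31, edgeR adjusted p = 0.9999), and neither passed the threshold. WT was all male and 1b-/- all female, so the sex covariate was set by the 1b+/- libraries alone. These values therefore do not separate genotype from sex between WT and 1b-/-.

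**Figure D3:**
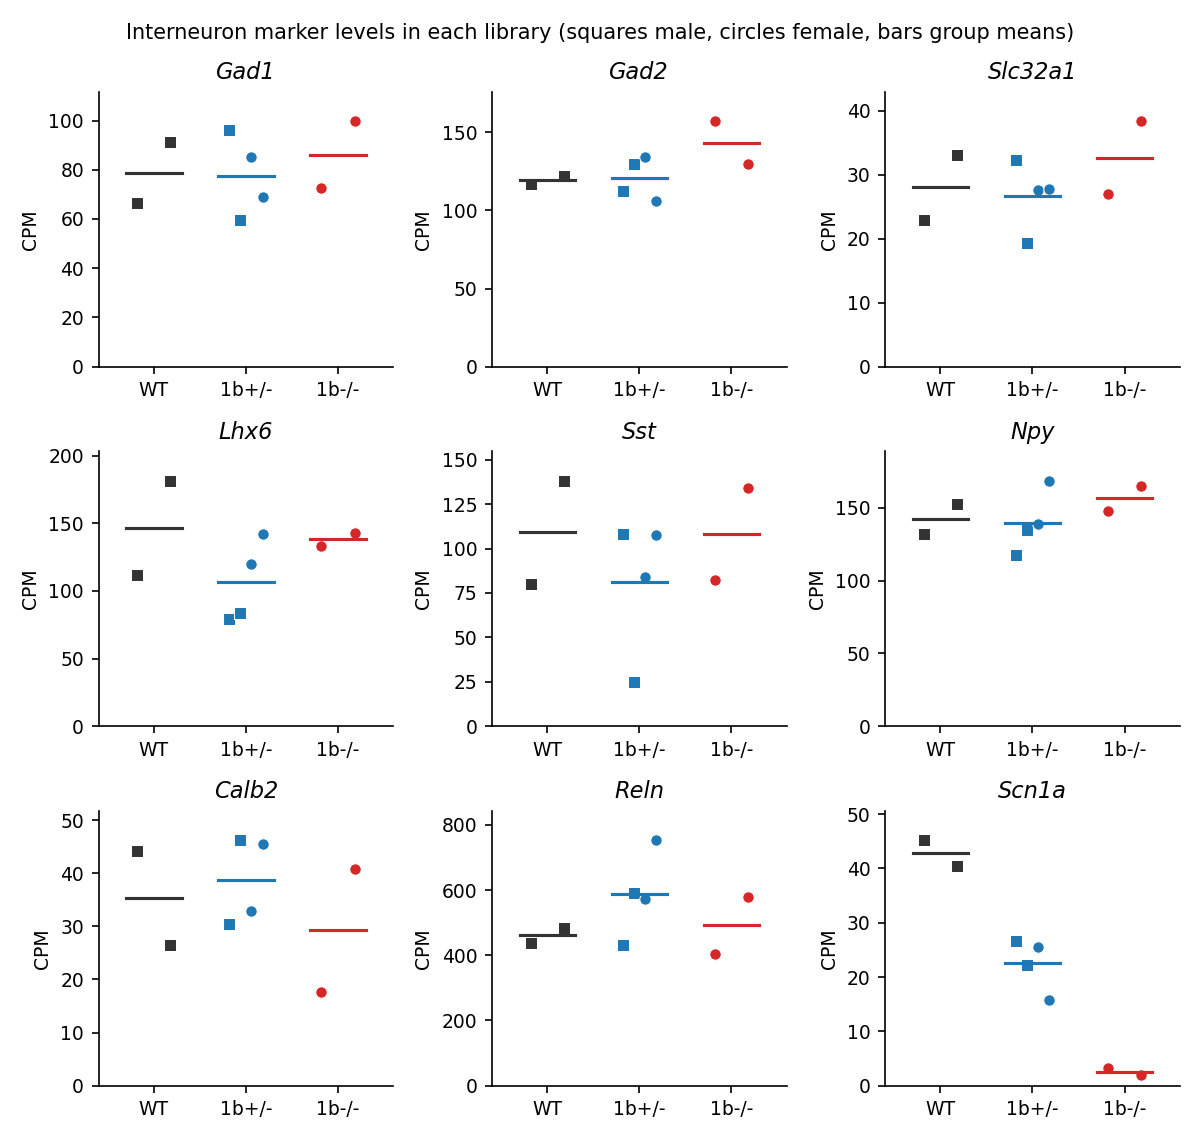
Level (CPM, axes from 0) of the 8 tested members and *Scn1a* by genotype, with 1 point per library and a bar at the group mean. *Scn1a* falls from 45.1 and 40.5 CPM in WT to 3.18 and 2.003 CPM in 1b-/-, while the genotypes overlap for every member except *Gad2* in 1b-/- against WT.

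Among the neuropeptides, *Sst* (mm9 chr16:23889667-23890930, minus strand) was 80.3 and 138 CPM in WT, 108, 24.95, 84.2 and 108 CPM in 1b+/-, and 82.1 and 134 CPM in 1b-/-. The value in 1b+/- replicate 2 stood far below the other 7, which overlapped between genotypes. The highest *Sst* level was 5.53 times the lowest, a wider range than in 99.5% of the 9609 tested genes with a mean of at least 10 CPM, whose median was 1.499 times. In the same library, *Gad1* and *Slc32a1* were also at their lowest, genes of the choroid plexus summed to 35.2 CPM against 198 to 1064 CPM in the others, 8 of 12 of them were lowest there, and 6 of 7 olfactory bulb genes were highest there. Not all members were low there: 3 of the 8 tested members were at their lowest and *Calb2* at its highest (46.2 CPM). *Gad2* was 130 CPM and *Reln* 590 CPM. Of 22 interneuron transcription factors, 8 were at their highest and 5 at their lowest in that library. Pan-neuronal genes summed to 5917 CPM in that library against 6524 to 7537 CPM in the others. The part of this tissue content in the *Sst* value was not tested.

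The log2 fold change of *Sst* was -0.43 (SE 0.44, 95% interval -1.39 to 0.53) in 1b+/- and -0.02 (SE 0.52, -1.15 to 1.11) in 1b-/- against WT, the widest intervals of the members. *Npy* (mm9 chr6:49772709-49779506, plus strand) was 132 and 153 CPM in WT, 118, 135, 139 and 169 CPM in 1b+/-, and 148 and 165 CPM in 1b-/-. It had the narrowest range of the members, 1.43 times, and the genotypes overlapped. Its log2 fold change was -0.03 (95% interval -0.37 to 0.31) in 1b+/- and 0.14 (-0.26 to 0.53) in 1b-/- against WT.

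*Calb2* encodes calretinin, a calcium-binding protein of interneurons that often contain VIP and of Cajal-Retzius cells. Its level (mm9 chr8:112661402-112692110, minus strand) was 44.2 and 26.5 CPM in WT, 30.4, 46.2, 33.0 and 45.4 CPM in 1b+/-, and 17.6 and 40.8 CPM in 1b-/-. The single lowest value belonged to 1b-/- replicate 1, and the genotypes overlapped. The range of 2.62 times was wider than in 96.7% of genes. Its log2 fold change was 0.11 (SE 0.31) in 1b+/- and -0.32 (SE 0.37, 95% interval -1.13 to 0.49) in 1b-/- against WT.

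*Reln* encodes reelin, an extracellular protein that guides neuronal layering and is made by Cajal-Retzius cells as well as by interneurons. Its level (mm9 chr5:21390272-21850523, minus strand) was 439 and 484 CPM in WT, 432, 590, 573 and 753 CPM in 1b+/-, and 405 and 579 CPM in 1b-/-. Of the 4 1b+/- libraries, 3 were above both WT libraries and replicate 1 was below both, so the groups overlapped. For *Reln* the log2 fold change was 0.35 (SE 0.21, 95% interval -0.11 to 0.80, edgeR adjusted p = 0.9999) in 1b+/- and 0.09 (SE 0.24, -0.43 to 0.61) in 1b-/- against WT. The 8 Cajal-Retzius genes summed to 170 and 167 CPM in WT, 150 to 346 CPM in 1b+/-, and 129 and 177 CPM in 1b-/-. The highest sum, in 1b+/- replicate 1, held 225 CPM of *Ebf3*, named after its values were seen, against 20.9 to 48.2 CPM in the others, while *Cxcr4*, the most abundant gene of the list, was lowest there (51.0 CPM).

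In 1b-/- against 1b+/-, 6 of the 8 members had log2 fold changes above 0, from 0.14 for *Gad1* to 0.41 for *Sst*. *Calb2* was at -0.43 (95% interval -1.15 to 0.29) and *Reln* at -0.25 (-0.71 to 0.20). The groups overlapped for all 8 members, where 7.39% of all genes did not overlap. In 1b+/- against WT the groups also overlapped for all 8, against 12.3% of all genes without overlap.

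Ratios within a library remove its depth and any factor common to both genes. They were chosen after the values were seen and were given no test. The ratio of *Slc32a1* to *Gad1* counts was 0.347 and 0.363 in WT, 0.334, 0.324, 0.323 and 0.403 in 1b+/-, and 0.371 and 0.384 in 1b-/-. It varied by 1.25 times over the 8 libraries, although each gene alone varied by 1.98 and 1.67 times.

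The ratio of *Gad1* to *Gad2* varied more, from 0.461 in 1b+/- replicate 2 to 0.857 in 1b+/- replicate 1. It was 0.566 and 0.748 in WT and 0.463 and 0.770 in 1b-/-, so both groups fell within the range of 1b+/-. *Sst* to *Lhx6* was 0.718 and 0.761 in WT, 1.36, 0.298, 0.702 and 0.756 in 1b+/-, and 0.615 and 0.939 in 1b-/-. The 2 male 1b+/- libraries lay at opposite ends, and the other 6 lay between 0.615 and 0.939.

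**Figure D4:**
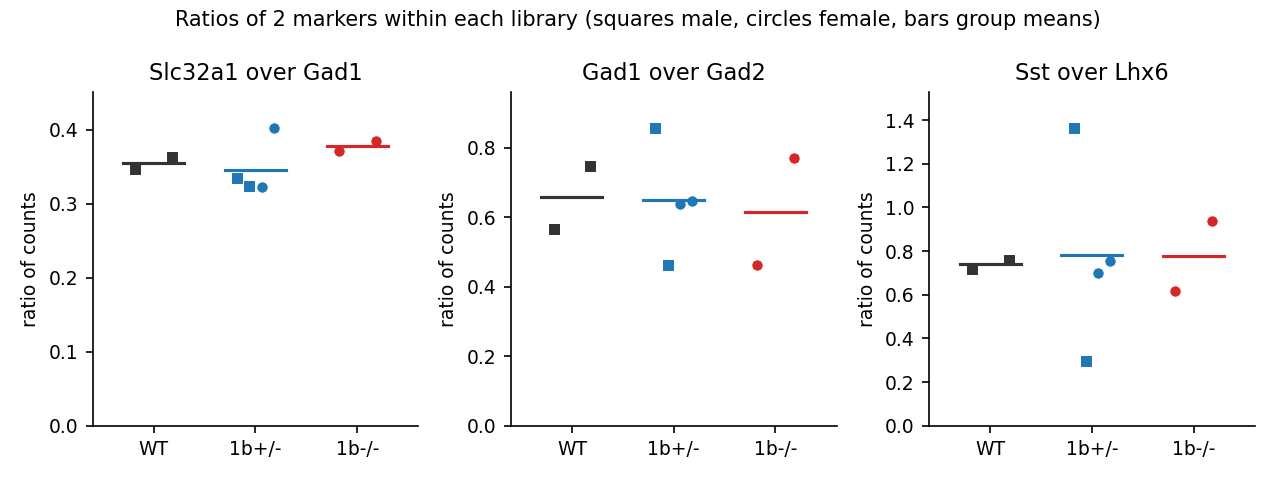
Ratio of the counts of 2 members within each library by genotype (axes from 0, no unit), with 1 point per library and a bar at the group mean. *Slc32a1* to *Gad1* stays between 0.323 and 0.403, whereas *Sst* to *Lhx6* runs from 0.298 to 1.36, both extremes in 1b+/-.

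Other genes of the GABA system were described through 3 lists. GABA handling (12 genes of transport and metabolism) had 0 of 12 tested genes called in every comparison of genotypes, interneuron transcription factors 0 of 22, and interneuron subclass genes 0 of 27, with *Cox6a2* not tested. At an unadjusted edgeR p under 0.05, 1 gene of each list stood in 1b+/- against WT, none of the lists had one in 1b-/- against WT, and 1 transcription factor stood in 1b-/- against 1b+/-. The list medians were 0.10, -0.07 and -0.13 in 1b+/- against WT and 0.00, 0.04 and 0.01 in 1b-/- against WT, as log2 fold changes. In 1b-/- against 1b+/- they were 0.00, 0.10 and 0.05, and 19 of the 22 transcription factors had a log2 fold change above 0, as did 7644 of all 15588 genes. In 1b+/- replicate 1, one of the libraries behind that count, 12 of the 22 transcription factors were at their lowest and the list summed to 1986 CPM, against 2537 to 3564 CPM in the other libraries.

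**Figure D5:**
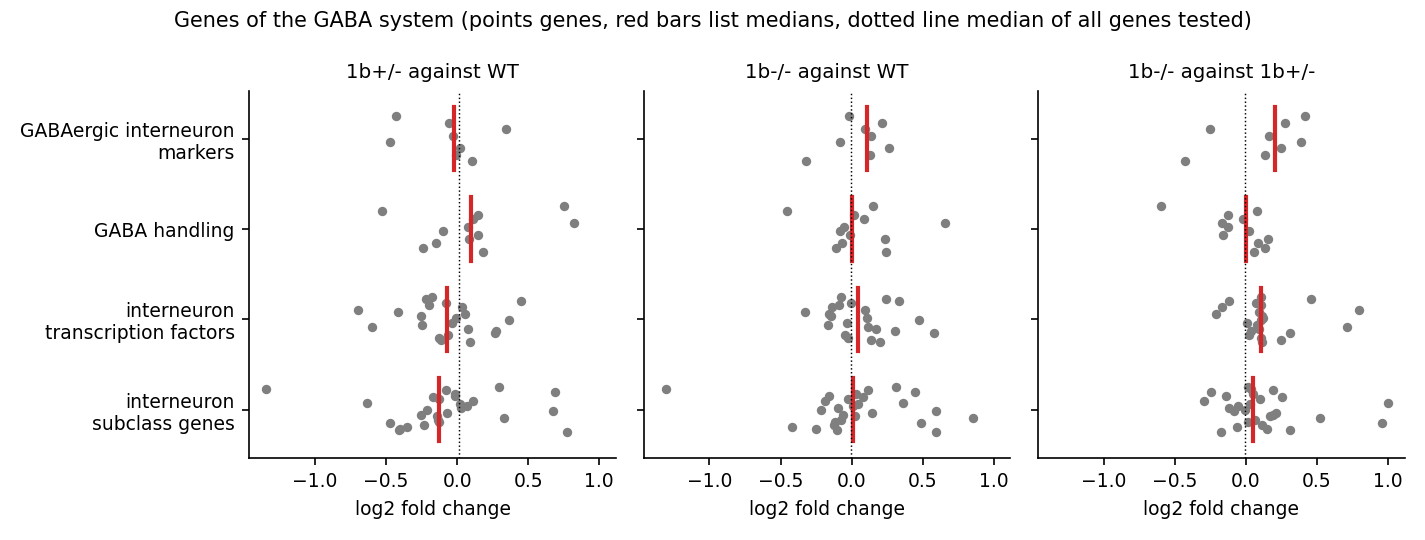
Log2 fold changes of the tested members and of the genes of 3 GABA system lists in the 3 comparisons of genotypes, with red bars at list medians and a dotted line at the median of all genes tested. List medians lie between -0.13 and 0.21, and the lowest point, *Tac2*, is at -1.35.

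The gene *Slc38a5*, a glutamine transporter, had the lowest unadjusted p of the GABA handling genes in 1b+/- against WT (log2 fold change 0.83, SE 0.32, edgeR adjusted p = 0.9999). It was 12.5 and 10.3 CPM in WT, 12.4, 25.9, 17.3 and 27.7 CPM in 1b+/-, and 21.5 and 14.02 CPM in 1b-/-. Its groups overlapped in 1b+/- and not in 1b-/-, where the log2 fold change was 0.66 (SE 0.36). No overlap was also found for 23.6% of all genes in 1b-/- against WT. *Slc6a13*, a GABA transporter, was at 0.75 (SE 0.39) in 1b+/- against WT.

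*Prox1*, a factor of interneurons from the caudal ganglionic eminence and of dentate granule cells, was 30.7 and 17.01 CPM in WT, 14.6, 11.6, 20.1 and 11.7 CPM in 1b+/-, and 21.2 and 30.8 CPM in 1b-/-. Both 1b-/- libraries were above all 4 1b+/- libraries, whereas WT overlapped both. In 1b-/- against 1b+/-, 7.39% of all genes did not overlap. For *Prox1* the log2 fold change was -0.70 (SE 0.28, edgeR adjusted p = 0.9999) in 1b+/- against WT and 0.79 (SE 0.29, edgeR adjusted p = 1.0) in 1b-/- against 1b+/-. *Prox1* is also in the list of hippocampal fields. Against WT, *Npas3* was at -0.25 (SE 0.14) in 1b+/-, and *Dlx6* at 0.58 (SE 0.33) and *Nkx2-1*, a factor of the medial ganglionic eminence, at 0.47 (SE 0.38) in 1b-/-. *Sp9* was at 0.46 (SE 0.25) in 1b-/- against 1b+/-.

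*Tac2*, which encodes neurokinin B, was 3.56 and 3.68 CPM in WT, 0.462, 2.42, 1.79 and 0.668 CPM in 1b+/-, and 0.734 and 2.50 CPM in 1b-/-. Both WT libraries were above the other 6, which rested on 2 to 37 counts each. *Tac2* thus did not overlap, as 12.3% of all genes did not in 1b+/- and 23.6% in 1b-/- against WT. The log2 fold change was -1.35 (SE 0.59, edgeR adjusted p = 0.9999) in 1b+/- and -1.31 (SE 0.76, edgeR adjusted p = 1) in 1b-/- against WT. *Syt2*, a synaptotagmin of fast-spiking terminals, was at 0.69 (SE 0.42) in 1b+/-, and *Crhbp* at 0.86 (SE 0.76) in 1b-/-, both against WT. *Nxph1* and *Erbb4*, the neuregulin receptor, were at 0.25 (SE 0.17) and 0.21 (SE 0.14) in 1b-/- against 1b+/-.

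Lists of other cell types were described in the same way. In edgeR, 0 genes of the 11 lists were called in the comparisons of genotypes, and at an unadjusted p under 0.05 the largest count was 4 of 11 tested choroid plexus genes in 1b+/- against WT, where 4.34% of all genes stood. The choroid plexus list, led by *Ttr*, summed to 35.2 to 1064 CPM over the libraries, with a median log2 fold change of -1.26 in 1b+/- and -0.45 in 1b-/- against WT. Glutamatergic neuron genes, led by *Neurod6*, summed to 2559 to 4401 CPM, with medians of -0.19 and -0.19, and pan-neuronal genes, led by *Map2*, to 5917 to 7537 CPM, with medians of -0.17 and -0.05. Hypothalamic genes summed to 3.92 to 11.5 CPM and cerebellar genes to 185 to 316 CPM. The cerebellar sum rested on few genes: it was 185 CPM in 1b+/- replicate 4, where 7 of 11 genes had 0 counts. The part of these lists in the values of the members was not tested.

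Sex was compared within 1b+/-, the genotype that held both (2 females against 2 males). No member passed the threshold (percentage of all genes called 0.0321%), and 1 of 8, *Lhx6*, had an unadjusted edgeR p under 0.05, as did 2.66% of all genes. *Lhx6* was higher in both females (120 and 142 CPM) than in both males (79.4 and 83.7 CPM), with a log2 fold change of 0.68 (SE 0.22, 95% interval 0.19 to 1.17, edgeR adjusted p = 0.9999). *Npy* likewise did not overlap, at a log2 fold change of 0.28 (SE 0.17). These 2 of 8 members compare with 26.2% of all genes that did not overlap, 12.1% with the higher level in females.

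Tissue content moved with sex in these libraries. Of the 11 tested midbrain and hindbrain genes, 11 had lower levels in females, with a median log2 fold change of -2.92, and 9 of them had an unadjusted edgeR p under 0.05. The list summed to 107 and 32.3 CPM in the male 1b+/- libraries and 13.5 and 16.03 CPM in the female ones, so most of the excess lay in 1b+/- replicate 1. The part of this difference in the *Lhx6* value was not tested, and the 2 WT libraries, both male, had *Lhx6* levels of 112 and 181 CPM, above both male 1b+/- libraries.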

How the data were processed

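Stranded poly(A) libraries of 8 mice were aligned to mm9 with STAR 2.7.2 and counted per gene with featureCounts, as the methods and the submitters' processing notes state. The featureCounts version, strand setting, treatment of multiply mapped reads and gene annotation are not given in the sources used here. The deposited counts are whole reads per gene symbol, made by the authors without normalization, with 1 column per animal, and the number of columns not used was 0. Of 24013 distinct symbols, 20920 (87.1%) were found in GENCODE vM1 on mm9, which gave gene positions and the summed exon length behind RPKM.

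A gene was tested where any library reached 1 CPM. All 8 libraries entered 1 quasi-likelihood fit by genotype after TMM scaling (edgeR 4.0.16 in R 4.3.3). A fit with 1b+/- divided by sex gave females against males. P-values were adjusted over all genes tested by the Benjamini-Hochberg method at 0.05. Intervals of 95% are from the fitted standard error. The fits were tested on simulated data.

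The members and gene lists were chosen with earlier results of these data known. The rule for named genes took the 10 members, *Scn1a*, any gene of the 3 GABA system lists past the threshold, the 2 with the smallest unadjusted p per list and comparison, and the most abundant gene of each list of other cell types. *Cox6a2*, *Ebf3* and *Zeb2* were named outside it. A gene that this rule named is not reported here. Lists of other cell types were pan-neuronal, glutamatergic, Cajal-Retzius, striatal, thalamic, midbrain and hindbrain, hypothalamic, cerebellar, olfactory bulb, choroid plexus and hippocampal genes.

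The alternatives were 2 other low-count filters (none, or filterByExpr), scaling by RLE, upper quartile or pan-neuronal genes, the Wald test of DESeq2 1.42.0, a likelihood ratio test in edgeR, a sex covariate, and omission of each library. Omission of both WT replicate 1 and 1b+/- replicate 1 was added after seeing the data. Replicate numbers follow accession order and pair no animals. Motifs were searched in RefSeq windows of GRCm38.p6, and *Calb2* had no entry.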

Additional observations from a re-analysis of the deposited data

Results flagged for a closer look

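Of 47 measures examined in the 4 1b+/- libraries, 2 had a sample far from the other 3, where chance alone gives about 2.35. The ratio of *Slc32a1* to *Gad1* counts was 0.403 in 1b+/- replicate 4, the shallowest library, and 0.323 to 0.334 in the other 3. The gap was 0.86 of the group's range (critical value 0.829), which takes no account of counting error. The value of 0.403 rested on 83 and 206 counts. The level of *Zic1*, the most abundant gene of the thalamus list, was 335 CPM in 1b+/- replicate 2 and 160, 135 and 138 CPM in the other 3, a gap of 0.873 of the range. Of the 12 thalamus genes, whose sum there was 526 CPM, *Zic1* was the only 1 at its highest in that library. In that same library *Sst* was 24.95 CPM.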

How the results depend on the processing

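No paired analysis was possible because the labels give the animals no shared replicate numbers. The 24 fold changes of members were refitted under 17 alternatives, which gave 408 values. Of these, 372 kept their direction, 36 turned and 0 passed the threshold. In the comparisons of genotypes the count of called members and of called genes of the 3 GABA system lists was 0 under every alternative. The exception in the sex comparison was the added omission of both WT replicate 1 and 1b+/- replicate 1, under which 1 member, *Sst*, was called (edgeR adjusted p = 0.0452), with 1b+/- replicate 2 then the lone male of its group and assumed to vary like the others. The lowest edgeR adjusted p of that comparison under the remaining alternatives was 0.0943, without a filter.

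Directions turned mostly where the log2 fold change was near 0. Without both WT replicate 1 and 1b+/- replicate 1, log2 fold changes in 1b-/- against WT were 0.11 for *Calb2*, -0.088 for *Gad1* and -0.032 for *Slc32a1*. Upper quartile scaling gave 0.020 for *Gad1* in 1b+/- and 0.0040 for *Sst* in 1b-/-. Scaling by pan-neuronal genes, under which the median of all genes in 1b+/- against WT was 0.14 in place of 0.01, gave 0.11 for *Gad1*, 0.090 for *Npy* and 0.059 for *Slc32a1* in 1b+/-, and 0.011 for *Sst* in 1b-/-. Sex as a covariate, which the 1b+/- libraries alone could set, gave -0.14 for *Npy* and -0.28 for *Reln* in 1b-/-. The cause was not tested.

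Omission of each library in turn gave ranges across 0 in 1b+/- against WT for *Gad1* (-0.23 to 0.23), *Gad2* (-0.032 to 0.070), *Slc32a1* (-0.31 to 0.22), *Npy* (-0.13 to 0.079), *Calb2* (-0.20 to 0.53) and *Sst* (-0.77 to 0.0083, the highest without WT replicate 2). In 1b-/- against WT they were *Calb2* (-1.01 to 0.19), *Gad1* (-0.11 to 0.37), *Lhx6* (-0.39 to 0.30), *Reln* (-0.19 to 0.33), *Slc32a1* (-0.049 to 0.49) and *Sst* (-0.41 to 0.42). In 1b-/- against 1b+/- they were *Calb2* (-1.12 to 0.089) and *Gad1* (-0.10 to 0.35). With 2 animals in each of WT and 1b-/- and a shallowest library of 2947770 counts, differences within the intervals of the members remain possible. The intervals are not a limit of detection. *Scn1a* at a log2 fold change of -0.90 in 1b+/- against WT was not called, although its interval lay below 0. The number of genes called over the whole table ran from 0 to 64 in 1b+/- against WT, with 64 under the likelihood ratio test, and 0 with sex as a covariate, without WT replicate 1, without 1b+/- replicate 3 or under the added omission, and from 1 to 33 in 1b-/- against WT, with 33 without a filter.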
